A study of Lactuca sativa with 6 samples.

Results

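Rubisco small chain genes of lettuce were chosen as the genes whose Swiss-Prot description names the small chain of ribulose bisphosphate carboxylase, and 6 of the 2579 genes in the deposited table met this rule. The NR descriptions (best matches in a non-redundant protein database) of the same 6 genes, and of no further gene in the table, also named a Rubisco small subunit of *Lactuca sativa*. The libraries were made from young leaves of 1-month-old plants of the cultivar S39, with 3 biological replicates of *LsAP2*-OE plants and 3 of WT plants. *LsAP2*-OE plants carry the full-length *LsAP2* coding sequence behind the cauliflower mosaic virus 35S promoter, which is active in most plant cells, and WT plants are the wild-type control. The sources used here do not name the transgenic line or lines behind the *LsAP2*-OE libraries, so a difference that belongs to a line cannot be told apart from overexpression of *LsAP2*. The comparison asked which genes differ in leaves with more of this AP2 family transcriptional repressor.

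Rubisco fixes carbon dioxide in the chloroplast stroma and thereby starts the Calvin cycle, and its side reaction with oxygen feeds photorespiration. The catalytic large chain is encoded in the chloroplast genome. The small chain is encoded by a family of nuclear genes (*RBCS*), made in the cytosol as a precursor and imported into the chloroplast, where it joins the large chain in the holoenzyme. Copies of the *RBCS* family in other plants, such as *Arabidopsis*, differ in level and respond to light, and the family is known for high transcript levels in green leaves.

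Each value is a normalized expression value per gene and library, and its kind of normalization is not named. Genes are in the table only if the authors had called them on these same libraries, by a fold change threshold of 2 and an FDR threshold of 0.01. That each listed copy differed between the groups is therefore part of how the table was made, and neither the p-values nor the counts below are independent evidence of it. Further *RBCS* copies, if any, were not analysed here. The 6 copies are close relatives, how reads that match several copies were counted is not given, and the value of each copy is uncertain to that extent. Whether values were scaled to gene length is also not given, so the order of levels between copies holds on the deposited scale only.

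*LsAP2* itself (Lsat_1_v5_gn_3_89681) had values of 214, 209 and 224 in the *LsAP2*-OE libraries, against 25.3, 27.9 and 30.5 in the WT libraries, a log2 fold change of 2.95 (SE 0.078, limma adjusted p = 2.15e-08). Reads of the transgene and of the native gene were not told apart. Across the listed genes, which are not independent, the log2 values of 2 libraries correlated at 0.986 to 0.990 within a group and at 0.733 to 0.745 across groups. Values summed to 103060 to 108937 in the *LsAP2*-OE libraries and to 97790.1 to 112997 in the WT libraries, and depth is unknown.

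All 6 Rubisco small chain genes were higher in *LsAP2*-OE leaves than in WT leaves, and their summed value was 2.85 times as high. The copies rose by very different amounts, with ratios of means of 2.22 to 295, and the copies that were low in WT leaves rose most in proportion. Consequently the make-up of the family differed between the groups, with 4 copies that were minor in WT leaves holding 20.7% of the family in *LsAP2*-OE leaves, against 6.49% in WT leaves. By limma on log2(value + 0.1), with Benjamini-Hochberg adjustment over the 2579 genes and a threshold of 0.01, 6 of 6 copies were called higher, where 59.1% of all listed genes were. No copy had overlapping groups, and 59.6% of all listed genes likewise had every *LsAP2*-OE library above every WT library. In whole leaves, more cells of a type and more RNA per cell cannot be told apart.

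**Figure D1:**
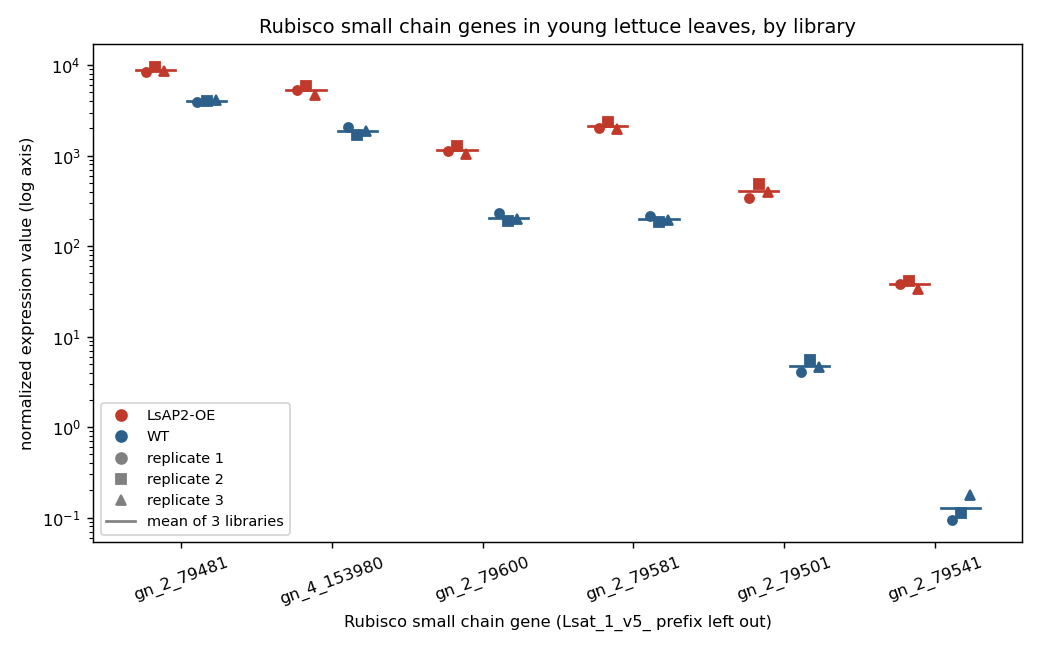
Normalized expression value (log axis) of each Rubisco small chain gene in each library, for *LsAP2*-OE (red) and WT (blue); symbols give the replicate and lines the mean of 3 libraries. The groups do not overlap for any copy, and the gap widens toward the copies that are low in WT leaves, with a ratio of means of 2.22 for gn_2_79481 and 295 for gn_2_79541.

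The most abundant copy was Lsat_1_v5_gn_2_79481 (the prefix Lsat_1_v5_ is left out from here on). Its values were 8386, 9653 and 8742 in the *LsAP2*-OE libraries, against 3967, 3993 and 4080 in the WT libraries. These were the highest mean values in the table in both groups, and the lowest *LsAP2*-OE library was 2.06 times the highest WT library. The mean was 8927 ± 653 in *LsAP2*-OE leaves and 4013 ± 58.8 in WT leaves (SD, n = 3 each), a 2.22-fold difference with a log2 fold change of 1.15 (SE 0.10, 95% interval 0.91 to 1.39, limma adjusted p = 8.83e-06). Although this copy changed least in proportion, it added the most transcript, with 42.2% of the rise of the family sum.

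The second copy, gn_4_153980, is the member whose ID does not belong to group 2 of the gene IDs. Its values were 5293, 5908 and 4732 in the *LsAP2*-OE libraries, against 2093, 1700.0 and 1878 in the WT libraries. The groups were far apart relative to the spread within each, although both groups varied by more than the first copy did in WT leaves. Its mean was 5311 ± 588 in *LsAP2*-OE leaves and 1890.2 ± 197 in WT leaves (SD, n = 3 each), with a log2 fold change of 1.49 (SE 0.12, 95% interval 1.21 to 1.77, limma adjusted p = 4.86e-06). This copy contributed 29.4% of the rise.

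A pair of copies, gn_2_79600 and gn_2_79581, had similar values in WT leaves and separated in *LsAP2*-OE leaves. Values of gn_2_79600 were 1137, 1269.6 and 1058 in the *LsAP2*-OE libraries, against 234, 188 and 198 in the WT libraries. Values of gn_2_79581 were 2048, 2332 and 1985 in the *LsAP2*-OE libraries, against 214, 187 and 194 in the WT libraries. In WT leaves gn_2_79600 lay slightly above gn_2_79581 in every library, and in *LsAP2*-OE leaves it lay well below it in every library. Means of gn_2_79600 were 1155 ± 107 in *LsAP2*-OE leaves and 207 ± 24.2 in WT leaves (SD, n = 3 each), a log2 fold change of 2.48 (SE 0.10, 95% interval 2.25 to 2.72, limma adjusted p = 1.64e-07). Means of gn_2_79581 were 2122 ± 185 and 199 ± 13.9 in *LsAP2*-OE and WT leaves (SD, n = 3 each), a log2 fold change of 3.42 (SE 0.087, 95% interval 3.21 to 3.62, limma adjusted p = 1.96e-08). The ratio of gn_2_79581 to gn_2_79600 was 1.80, 1.84 and 1.88 in the *LsAP2*-OE libraries, against 0.915, 0.995 and 0.981 in the WT libraries, a comparison chosen after the values were seen. It was the single change in the order of the copies: in every *LsAP2*-OE library gn_2_79581 came before gn_2_79600, in every WT library they were the other way round, and the remaining 4 copies held their places in all 6 libraries.

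The copies gn_2_79501 and gn_2_79541 had the lowest values of the family in both groups. Values of gn_2_79501 were 344, 488 and 399 in the *LsAP2*-OE libraries, against 4.06, 5.50 and 4.60 in the WT libraries. The *LsAP2*-OE values spread more for this copy than for any other, with a coefficient of variation of 17.7%, but the lowest of them was 62.5 times the highest WT value. Its mean was 410.2 ± 72.7 in *LsAP2*-OE leaves and 4.72 ± 0.729 in WT leaves (SD, n = 3 each), an 86.9-fold difference with a log2 fold change of 6.41 (SE 0.15, 95% interval 6.07 to 6.74, limma adjusted p = 1.75e-08).

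Values of gn_2_79541 were 38.3, 41.0 and 34.0 in the *LsAP2*-OE libraries, against 0.0951, 0.111 and 0.177 in the WT libraries. All WT values were near the pseudocount of 0.1, and the number of reads behind them is unknown. The mean was 37.8 ± 3.51 in *LsAP2*-OE leaves and 0.128 ± 0.0435 in WT leaves (SD, n = 3 each), a ratio of 295. On the log2(value + 0.1) scale, where the change of a low gene comes out too small, the log2 fold change was 7.39 (SE 0.18, 95% interval 6.98 to 7.80, limma adjusted p = 1.85e-08). It was 5.10 with a pseudocount of 1 and 8.14 with a pseudocount of 0.01, so the size of this change, unlike its direction, depended on the pseudocount. Among the 2579 listed genes this copy stood at place 2 by log2 fold change, gn_2_79501 at place 7 and gn_2_79481 at place 1096.

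Over the 6 copies, the order by ratio of means was the exact reverse of the order by WT level. Both orders rest on the same WT values, and 6 copies of a family are not independent. The levels were also closer together in *LsAP2*-OE leaves, where gn_2_79541 was at 0.00424 of the value of gn_2_79481, against 3.18e-05 in WT leaves. The number of reads behind the WT ratio is unknown, and the part of reads shared between copies in these values was not tested.

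**Figure D2:**
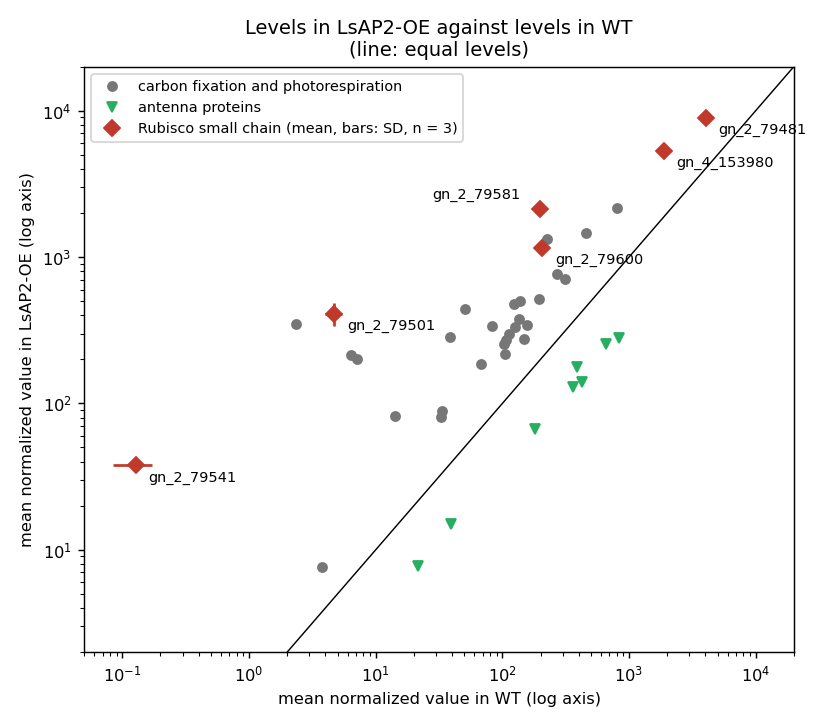
Mean normalized value in *LsAP2*-OE leaves (vertical log axis) against that in WT leaves (horizontal log axis) for the 6 Rubisco small chain genes (red diamonds with SD bars, n = 3), the 27 genes of the carbon fixation and photorespiration lists (grey circles) and 8 antenna protein genes (green triangles). All red and grey points lie above the line of equal levels and all green points below it, and the red points lie farther above it toward the low end of the WT axis.

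Whether the copies differed in their change was examined within each library as the log2 ratio of a copy to gn_2_79481, with a pseudocount of 0.1 in both. The difference in this ratio, *LsAP2*-OE minus WT, was 0.34 for gn_4_153980, 1.33 for gn_2_79600, 2.27 for gn_2_79581, 5.26 for gn_2_79501 and 6.24 for gn_2_79541. The groups did not overlap in any of the 5 ratios. For gn_4_153980, the closest case, the ratio was −0.66, −0.71 and −0.89 in the *LsAP2*-OE libraries, against −0.92, −1.23 and −1.12 in the WT libraries, so that the lowest *LsAP2*-OE library was just above the highest WT library. An exact permutation test, two-sided, gave p = 0.1 for each ratio and 0.1 after adjustment over the 5, and 0.1 is the smallest p that 3 libraries against 3 can give. This test thus cannot reach 0.05 with these libraries, and the differences are given as sizes.

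The family sum was 17247, 19691 and 16951 in the *LsAP2*-OE libraries, against 6512, 6074 and 6355 in the WT libraries. It did not overlap between the groups, and its mean was 17963 ± 1504 in *LsAP2*-OE leaves and 6314 ± 222 in WT leaves (SD, n = 3 each). Of the summed value of all listed genes, the family made up 16.7%, 18.1% and 16.4% in the *LsAP2*-OE libraries, against 5.76%, 6.21% and 6.34% in the WT libraries. These percentages are shares of a table of called genes and not of the whole transcriptome.

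Each copy's share of the family sum sets aside any scaling of a whole library. The share of gn_2_79481 was lower in every *LsAP2*-OE library than in any WT library, at 48.6%, 49.0% and 51.6% against 60.9%, 65.7% and 64.2%. Thus this copy held about equal parts with all others together in *LsAP2*-OE leaves, with a mean share of 49.7 ± 1.60%, and held more than the others together in WT leaves, at 63.6 ± 2.46% (SD, n = 3 each). The share of gn_4_153980 was 30.7%, 30.0% and 27.9% in the *LsAP2*-OE libraries, against 32.1%, 28.0% and 29.6% in the WT libraries. These groups overlapped, with means of 29.5 ± 1.45% and 29.9 ± 2.09% in *LsAP2*-OE and WT leaves, and differences between single libraries ranged from −4.22 to 2.70 percentage points over the 9 pairs. Any change of this share between the groups was within the spread of the replicates, which does not show that there was none.

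The other 4 copies took up the part that gn_2_79481 gave up. The share of gn_2_79581 was 11.8 ± 0.0856% in *LsAP2*-OE leaves and 3.14 ± 0.126% in WT leaves, and that of gn_2_79600 was 6.43 ± 0.178% in *LsAP2*-OE leaves and 3.27 ± 0.281% in WT leaves (SD, n = 3 each). These shares varied little between replicates in comparison with the differences between the groups. The share of gn_2_79501 was 2.27 ± 0.252% in *LsAP2*-OE leaves and 0.0751 ± 0.0143% in WT leaves, and that of gn_2_79541 was 0.210 ± 0.0107% and 0.00203 ± 0.000686% (SD, n = 3 each). Although they had the largest ratios of means, gn_2_79501 added 3.48% and gn_2_79541 added 0.323% of the rise of the family sum, against 16.5% for gn_2_79581 and 8.14% for gn_2_79600. Together, the 4 copies with WT means under 1000 had summed values of 3567, 4131 and 3477 in the *LsAP2*-OE libraries, against 452, 381 and 397 in the WT libraries, a 9.08-fold difference of means. For the other 2 copies together the ratio was 2.41.

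**Figure D3:**
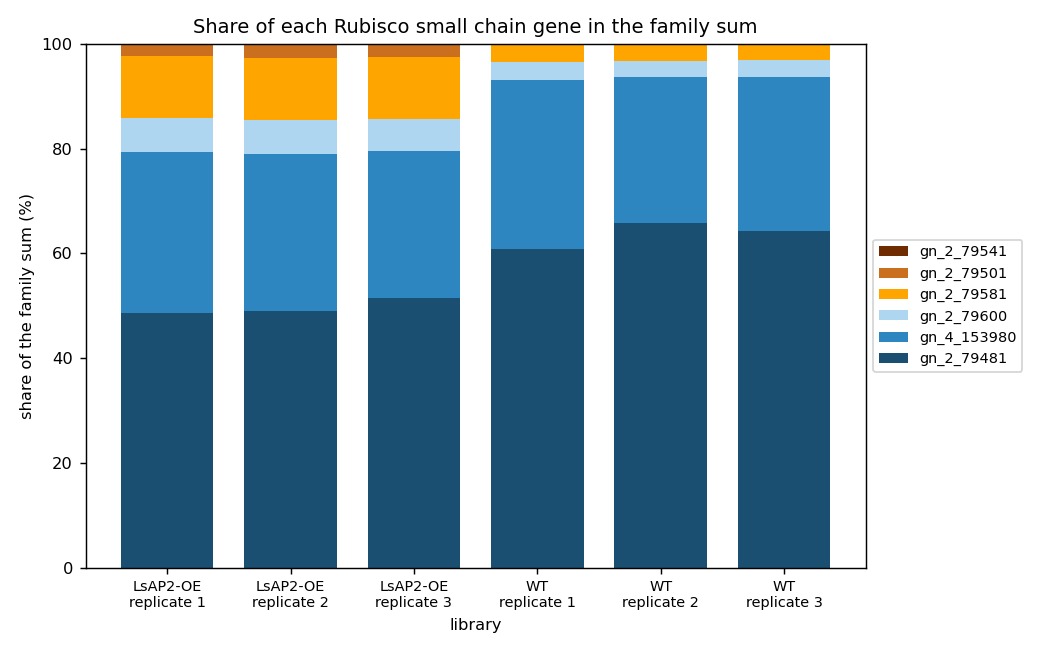
Share of each Rubisco small chain gene in the family sum (percent, linear axis from 0) in each *LsAP2*-OE and WT library. The share of gn_2_79481 is 48.6% to 51.6% in *LsAP2*-OE libraries and 60.9% to 65.7% in WT libraries, the share of gn_4_153980 overlaps between the groups, and gn_2_79581 and gn_2_79501 widen in *LsAP2*-OE libraries; gn_2_79541 is too small to be seen.

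Copies of small and of large change were found among close gene IDs and under the same description. Of the copies, 5 have IDs of group 2 within a span of 119 ID numbers, and no other listed gene has an ID inside this span or within 1000 ID numbers on either side of it. No coordinates were used here, and the IDs show only that these copies are numbered close together. The group 2 copies together held 70.5 ± 1.45% of the family in *LsAP2*-OE leaves and 70.1 ± 2.09% in WT leaves (SD, n = 3 each), and the groups overlapped. Among these close-numbered copies were the one that changed least (gn_2_79481) and both that changed most in proportion (gn_2_79501 and gn_2_79541). By NR description, gn_2_79481, gn_2_79501 and gn_2_79541 share an entry named RuBisCO small subunit, and gn_4_153980, gn_2_79600 and gn_2_79581 share a ribulose-1,5-bisphosphate carboxylase/oxygenase small subunit entry. The first 3 summed to 9375 ± 727 in *LsAP2*-OE leaves and 4018 ± 58.9 in WT leaves, a 2.33-fold difference, and the other 3 to 8588 ± 872 and 2295 ± 234, a 3.74-fold difference (SD, n = 3 each).

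The copies shared their highest *LsAP2*-OE library but not their lowest. Each of the 6 copies had its highest value in *LsAP2*-OE replicate 2, at 108.1% to 118.9% of its group mean, where the median of all listed genes stood at 100.5%. The lowest value was in *LsAP2*-OE replicate 1 for gn_2_79481 and gn_2_79501 and in *LsAP2*-OE replicate 3 for the other 4 copies. A highest sum in *LsAP2*-OE replicate 2 was not particular to the family, since the sum of all listed genes and the summed values of the Rubisco assembly, Calvin cycle, carbonic anhydrase, photorespiration, antenna and dividing cell lists described further on were also highest there. In WT leaves the copies had no common high library, since 3 (gn_4_153980, gn_2_79600 and gn_2_79581) were highest in WT replicate 1, 1 (gn_2_79501) in WT replicate 2 and 2 (gn_2_79481 and gn_2_79541) in WT replicate 3. Without *LsAP2*-OE replicate 2 the ratio of the family sums was 2.71.

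The genes with the most similar pattern were sought among 1943 described genes outside the family, as the smallest root mean square difference of log2(value + 0.1) over the 6 libraries, each gene set relative to its own WT mean. For gn_2_79481 these were *ACR11* (gn_5_9221, described as a protein with ACT domains) at 0.0457, the chloroplast ATP synthase subunit b′ (gn_6_21280) at 0.0474 and aminomethyltransferase (gn_7_16480), the T protein of the glycine cleavage system in photorespiration, at 0.0488. All 3 had log2 fold changes like that of gn_2_79481, at 1.13, 1.15 and 1.14, and passed limma. This likeness follows from how they were picked. For gn_2_79541 the nearest was carbonic anhydrase 1 (gn_4_182521) at 0.237, followed by the DEAD-box RNA helicase 47B (gn_6_7001) at 0.277 and a TNT 1-94 retrotransposon polyprotein (Lactuca_sativa_newGene_2012) at 0.848. Few listed genes changed this much, and the third match was already distant. The family sum was closest to tubulin beta-3 (gn_6_6441) at 0.0469, a FAF-like protein (gn_2_35160) at 0.0478 and sedoheptulose-1,7-bisphosphatase (gn_2_122641), an enzyme of the regenerative phase of the Calvin cycle, at 0.0503.

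The 3 listed genes matched to Rubisco assembly and activation were also called higher in *LsAP2*-OE leaves, where 59.1% of all listed genes were. Rubisco activase, which removes inhibitory sugar phosphates from the active site, was represented by activase 1 (gn_9_64940) and activase 2 (gn_2_118741), and assembly by Rubisco accumulation factor 2 (gn_2_107721). Activase 1 had values of 1408, 1509 and 1449 in the *LsAP2*-OE libraries, against 440.1, 456 and 464 in the WT libraries, a log2 fold change of 1.68 (limma adjusted p = 1.33e-07). Activase 2 had values of 1300.2, 1379 and 1299.9 in the *LsAP2*-OE libraries, against 225, 222 and 226 in the WT libraries, a log2 fold change of 2.56 (limma adjusted p = 1.85e-08). Of these 2 activase genes, the one with the lower WT level rose more. Level and change again rest on the same WT values, and 2 genes show no rule. The accumulation factor changed least of the 3, with a log2 fold change of 0.91 (limma adjusted p = 1.05e-06). No Rubisco large chain gene is among the listed genes.

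All 9 genes of the Calvin cycle list were called higher, where 59.1% of all listed genes were. Their median log2 fold change was 1.48 (1.20 to 5.05), where the median of all listed genes was 1.03 and that of the 6 small chain genes 2.95. The 1525 listed genes called higher, a closer comparison for a list that was all higher, had a median of 1.39. The list was matched by description and holds the protein CP12-2 (gn_5_46341), which is not described as an enzyme. Glyceraldehyde-3-phosphate dehydrogenase, the reductive enzyme of the cycle, is built of A and B subunits, and the log2 fold change was 1.43 for subunit A (gn_4_64540) and 3.11 for subunit B (gn_0_40540). The largest change of this list was that of an aldolase described as a cytoplasmic isozyme (gn_7_116520), which by this description works outside the chloroplast. It had values of 203, 232 and 203 in the *LsAP2*-OE libraries, against 5.58, 6.31 and 7.12 in the WT libraries (log2 fold change 5.05, limma adjusted p = 9.96e-09). The 12 listed photorespiration genes were likewise all called higher, with a median of 1.41 (1.00 to 2.86), near the 1.39 of all listed genes called higher.

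Carbonic anhydrases interconvert carbon dioxide and bicarbonate. All 3 listed genes were called higher, with log2 fold changes of 2.54, 4.81 and 7.15, which lie within the range of the small chain copies. The largest was carbonic anhydrase 1, with values of 334, 394 and 311 in the *LsAP2*-OE libraries, against 2.46, 2.16 and 2.36 in the WT libraries (limma adjusted p = 1.71e-09). In the 4 lists together, 27 of 27 genes were called higher, where 59.1% of all listed genes were. Their median log2 fold change was 1.46, near the 1.39 of all listed genes called higher. Of the 27, 23 rose more than gn_2_79481. That copy stood at place 1096 of the 2579 listed genes, so most listed genes called higher also rose more than it did. A log2 fold change above 5, which both gn_2_79501 and gn_2_79541 had, was found for 2 of the 27, carbonic anhydrase 1 and the cytoplasmic aldolase. No test of the difference between the small chain genes and these lists was made.

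**Figure D4:**
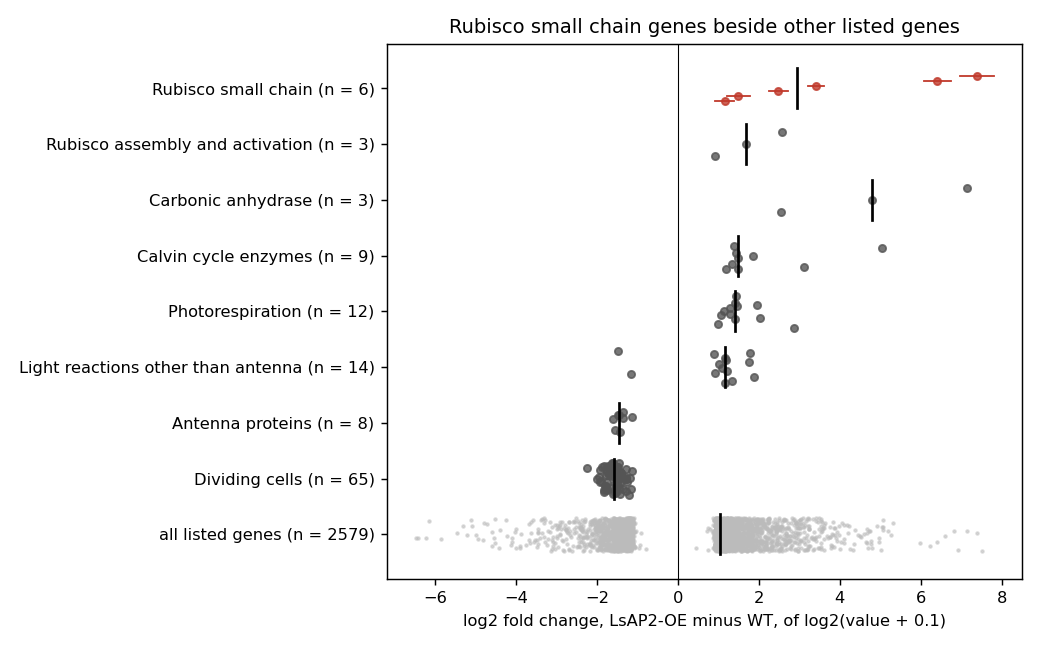
Log2 fold change (*LsAP2*-OE minus WT, of log2(value + 0.1)) of the 6 Rubisco small chain genes (red, bars are 95% intervals) beside the other gene lists (dark grey) and all 2579 listed genes (light grey); vertical ticks are medians. The small chain genes span 1.15 to 7.39 with a median of 2.95, the carbon fixation lists lie at positive values, and antenna protein genes and genes of dividing cells lie at negative values; few genes lie near 0 because the table holds called genes only.

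The light-harvesting side of photosynthesis did not move with the small chain genes. All 8 listed antenna protein genes, which encode the chlorophyll a-b binding proteins that collect light, were called lower, where 39.6% of all listed genes were. Their median log2 fold change was −1.45 (−1.60 to −1.13), and their summed value was 1001 to 1166 in the *LsAP2*-OE libraries and 2615 to 3258 in the WT libraries. Chlorophyll a-b binding protein 21 (gn_1_95341) had values of 138, 149.7 and 135 in the *LsAP2*-OE libraries, against 441, 406 and 435 in the WT libraries. Of the 14 other listed genes matched to the light reactions, 12 were called higher, 1 lower and 1 was not called. Over all listed genes, 59.1% were called higher and 39.6% lower. The median log2 fold change of the 14 was 1.15, near the 1.03 of all listed genes. Photosystem I reaction center subunit XI was the gene called lower, and photosystem I apoprotein A2, with a log2 fold change of −1.16, was the gene not called (limma adjusted p = 0.0623). This list includes 3 ferredoxin-dependent enzymes of nitrogen assimilation (2 nitrite reductases and a glutamate synthase), which take electrons from the light reactions. Of 16 listed light and greening regulators, 9 were called higher and 7 lower, near the shares of 59.1% and 39.6% over all listed genes. The 8 *CONSTANS-LIKE* genes among them went both ways, with 3 called higher and 5 lower.

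Genes matched by description as markers of cell state and cell type also differed between the same libraries. All 65 listed genes of dividing cells, most of them histones, were called lower, where 39.6% of all listed genes were. Their summed value was 13142 to 13626 in the *LsAP2*-OE libraries and 35428 to 46776 in the WT libraries. Of the other lists, 17 of 17 xylem genes and 5 of 5 phloem genes were called higher, where 59.1% of all listed genes were. Their summed values were 94.6 to 101 and 137 to 145 in the *LsAP2*-OE libraries, against 36.9 to 42.6 and 63.4 to 71.9 in the WT libraries. The highest xylem gene, gn_4_87180, had means of 20.4 in *LsAP2*-OE leaves and 8.43 in WT leaves. Its Swiss-Prot description is cinnamoyl-CoA reductase 1, but its NR description names a dihydroflavonol 4-reductase, so its place in this list is uncertain. Most other xylem genes are laccases with low values. Most of the phloem sum was the sucrose transport protein SUC2 (gn_1_6801), with means of 129 in *LsAP2*-OE leaves and 61.4 in WT leaves. Of 15 genes of epidermis and guard cells, 11 were called higher and 4 lower, where 59.1% and 39.6% of all listed genes were. The 4 were 2 *ECERIFERUM* genes and a pair of 3-ketoacyl-CoA synthase genes, all of wax or long-chain lipid synthesis. Other 3-ketoacyl-CoA synthase genes of this list were called higher, such as gn_3_79841 and gn_5_67800, with log2 fold changes of 0.96 and 1.11. The summed value of the 15 genes was 398 to 414 in the *LsAP2*-OE libraries and 297 to 318 in the WT libraries. The part of these differences in the values of the small chain genes was not tested.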

How the data were processed

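RNA of young leaves was sequenced in 3 *LsAP2*-OE and 3 WT libraries on an Illumina NovaSeq platform. The authors aligned clean reads with HISAT2 and called genes with DESeq, and HISAT2, HISAT and DESeq are the tools in the submitters' processing notes. Versions, counting program and genome build were not given in the sources used here. Each deposited signal value is a normalized expression value per gene and library, and low values showed no common step, so that reads and depth could not be recovered and no counting error can be given. The authors' FDR and log2 fold change columns hold their own comparison and were not used.

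The comparison used limma (version 3.58.1, R 4.3.3) with its trend option on log2(value + 0.1), without a filter or a replicate block, over all 2579 genes with Benjamini-Hochberg adjustment and a threshold of 0.01. The procedure was run on simulated data in which most genes were unchanged, unlike in this table of called genes. That run therefore does not show how the procedure behaves here. Ratios of means carry no pseudocount. Sums, shares and the exact permutation tests were computed with pandas 2.3.3, numpy 2.4.6 and scipy 1.17.1 in Python 3.11.15. Samples were grouped by their titles. P-values rest on these 3 replicates per group, from an unknown number of lines. In limma, the variance of each gene was also drawn toward a trend over all 2579 genes, which were selected on these same libraries. SEs, intervals and p-values of limma thus do not reflect the spread of a gene's own replicates alone. For gn_2_79581, the limma adjusted p was 1.96e-08 with the trend and 2.85e-06 without it.

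Members were matched by Swiss-Prot description, and 12 gene lists by words in the same descriptions, which 1949 genes carry. The members and lists were chosen with earlier results of these data known. Named genes were the members, *LsAP2*, up to 3 genes per list by level and 2 by log2 fold change, and the 3 most similar patterns each for the most abundant copy, the copy of largest log2 fold change and the family sum, although not every gene so picked is described. Genes of the lists outside this rule that are named beside a small count were chosen after their values were seen. Alternatives tried were a pseudocount of 1 or 0.01, a filter that kept genes with a mean of 1 or more, no trend, a replicate block, scaling within groups or to equal sums, a threshold of 0.05, members by NR description and each library left out in turn. Of the gene IDs, 0 matched the lettuce RefSeq gene table (assembly Lsat_Salinas_v11), so no coordinates or sequences are given. Genes outside the table were not analysed here.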

Additional observations from a re-analysis of the deposited data

How the results depend on the processing

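Over the 298 alternative values of 28 results, no log2 fold change and no difference between copies changed sign. No log2 fold change of a gene crossed the limma threshold. For the differences between copies only the sign was compared, and the permutation test was not repeated. The difference between gn_2_79541 and gn_2_79481 was 6.24, against 3.95 with a pseudocount of 1 and 6.99 with 0.01, so its size depended on the pseudocount. The shares and the ratio of the family sums stayed within 1 SD of the replicates, and counts of called genes within 1.5 times the reported count. For the shares this was fixed in advance, since the scaling of a library cancels in a share and the NR description gives the same 6 genes. Leaving out 1 of 3 libraries also cannot move a group mean by 1 SD, be it of the shares or of the family sum. The log2 fold change over 14 alternatives was 1.09 to 1.19 for gn_2_79481, 1.41 to 1.57 for gn_4_153980, 2.41 to 2.58 for gn_2_79600, 3.35 to 3.47 for gn_2_79581, 6.16 to 6.53 for gn_2_79501 and 5.10 to 8.14 for gn_2_79541, where both ends of the last range came from the pseudocounts. The ratio of the family sums was 2.71 to 2.93 with 1 library left out in turn and 2.80 with libraries scaled to equal sums. Of all listed genes, 1525 were called higher and 1021 lower, against 1294 and 891 among the genes of mean value of at least 1.

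With replicate number as a block (replicate block), all 6 copies stayed called, with a largest limma adjusted p of 3.34e-04 for gn_2_79481, and 1520 of all listed genes were called higher and 1018 lower. Deviations of same-numbered libraries correlated at −0.014, −0.039 and 0.014 over the listed genes. No pairing was seen at this scale, but an effect that is small or limited to few genes would not be seen this way.

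Limits are the selection of the table on these same libraries, the unknown depth, which matters most for gn_2_79541 in WT leaves, the unknown handling of reads shared between copies, and 3 replicates per group.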
